A study of Mus musculus with 7 samples.

Results

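Genes that mark T cells, natural killer (NK) cells, myeloid cells, erythroid cells and endothelium were followed through 7 RNA-seq libraries of mouse B lymphoma lines, with no gene left out for a low count. The set holds 43 genes, textbook markers of lineages other than the B lineage, chosen by symbol with earlier results of these data known. All 43 were found by Entrez identifier among the 27179 genes of the deposited tables. The lines came from end stage lymphomas of C57BL/6 males that all carried the Eµ-Myc transgene, in which an immunoglobulin heavy chain enhancer drives the Myc oncogene and B lineage cells become malignant. Smchd1 was wild-type in 3 lines (n = 3), and 4 lines (n = 4) were homozygous for a gene trap in Smchd1 and are called Smchd1 null. The labels give a gene trap, whereas the methods of the study write the genotype as Smchd1 MD1/MD1. Smchd1 encodes a chromatin protein with roles in X inactivation and in the silencing of clustered and imprinted genes. Libraries were made from total RNA with a kit that does not keep the strand of the transcript, and the labels place wild-type replicate 1 alone in batch 1 with single-end reads and the other 6 libraries in batch 2 with paired-end reads.

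T cells recognise antigen through a receptor whose CD3 chains pass the signal to the kinases LCK and ZAP-70, whereas NK cells and cytotoxic T cells kill with perforin and granzymes. Myeloid cells are set up by the transcription factors PU.1, encoded by Spi1, and the C/EBP proteins, and carry colony stimulating factor receptors, integrins and lysosomal proteins. B lineage commitment, maintained by Pax5 and Ebf1, includes repression of many such genes, but the boundary is not complete, and Cd2, Cd5, Lck, Zap70, Spi1, Itgam, Cd68, Pecam1 and Cebpb are also known from B lineage cells of the mouse.

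Library depth was between 3626853 counts in wild-type replicate 1 and 7519549 in Smchd1 null replicate 4. Smchd1 itself stood at 219 to 248 CPM (counts scaled by library total) in wild-type lines and 22.6 to 28.7 CPM in Smchd1 null lines. The wild-type and Smchd1 null labels thus held in all 7 libraries, while these levels do not tell which allele was used. A gene was called detected in a library at 3 counts or more, and a count of 0 allows a level of up to 0.827 CPM in the shallowest library and 0.399 CPM in the deepest. These limits cover counting error only. B lineage identity was checked on 11 markers. In Smchd1 null replicate 4, 5 of the 11 lay below all 6 other libraries (45.5%, against 19.3% of the 12303 genes tested for a difference), among them the B cell receptor inhibitor gene Cd22 at 25.4 CPM against 180.05 to 341 CPM and Pax5 at 16.6 CPM against 51.3 to 84.9 CPM, whereas the antigen receptor chain gene Cd79b was within their range at 303 CPM. The other 6 libraries themselves differed widely in some markers for which Smchd1 null replicate 4 was within their range. Ms4a1 lay at 0 to 12.8 CPM in them, Cd74 at 7.22 to 960 CPM and Igll1 at 0 to 33.6 CPM. Results that rest on Smchd1 null replicate 4 are given with and without it. Wild-type replicates 2 and 3 resembled each other far more than any other replicate pair did (Pearson r = 0.990 of log2 values across genes, against 0.840 to 0.942 within the other pairs of a group) but were not identical.

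Of the 43 genes, 20 stayed below 3 counts in every library of both genotypes, and 23 reached that limit in some library. Of the 20, 11 had 0 counts in every library (25.6% of the set, against 37.9% of all 27179 genes). These were the T cell genes Cd3e, Cd8a, Cd7 and Bcl11b, the NK receptor genes Klrd1 and Ncr1, the granzyme gene Gzmb, the neutrophil elastase gene Elane, the erythroid and megakaryocyte transcription factors Gata1 and Gata2, and the vascular endothelial growth factor receptor gene Kdr. The other 9, namely Cd3d, Cd3g, Cd8b1, Cd6, Gata3, Prf1, Csf3r, Itgax and Mpo, had no more than 2 counts in any library. Only 7 genes were detected in every library (16.3%, against 38.8% of all genes, while 53.5% of the set and 52.5% of all genes were detected in some library), namely Cd2, Lck, Spi1, Cebpb, Cd68, Pecam1 and Cdh5. Of these 7, 6 are listed above as also known from B lineage cells, but Cd5, Zap70 and Itgam of that list were not detected everywhere. The list was drawn up with earlier results of these data known, so the overlap is a description and no test. In these bulk libraries a few cells with much of a transcript and many cells with little of it cannot be told apart.

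**Figure D1:**
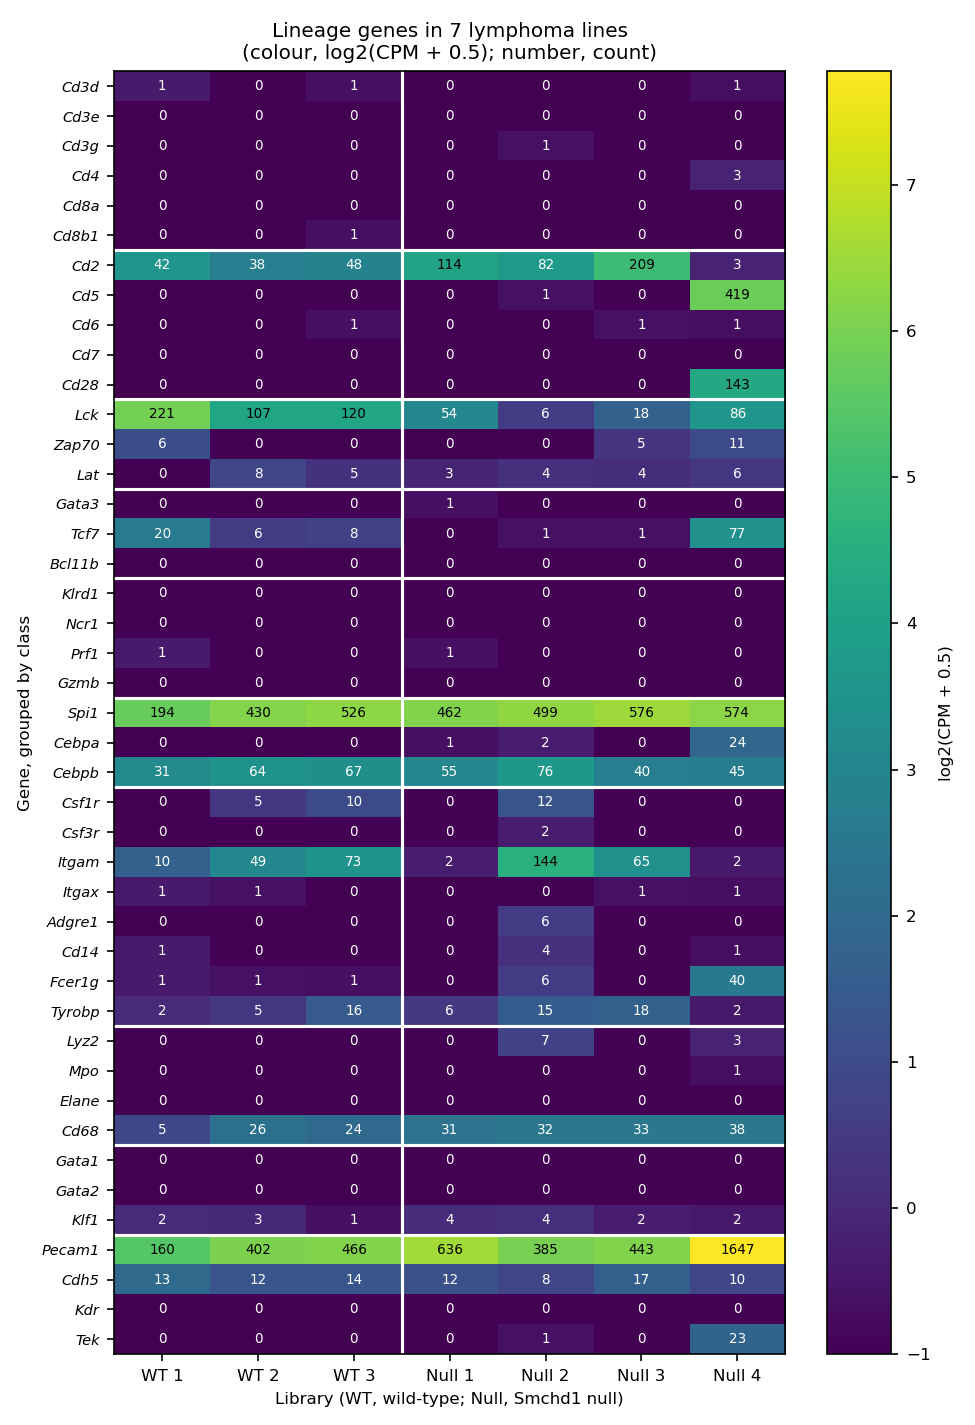
Each row is 1 of the 43 lineage genes, grouped by class, and each column is 1 library; the colour gives log2(CPM + 0.5) and the number gives the count. The bright rows are Spi1 and Pecam1 in all 7 libraries, the rows of 0 are the 11 genes without a count, and Cd5 and Cd28 light up in Smchd1 null replicate 4 alone.

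Taken over all libraries of a group, detection was wider in the Smchd1 null lines, and Smchd1 null replicate 4 held much of the excess. In wild-type lines 14 of the 43 genes reached 3 counts in some library and in Smchd1 null lines 23 did, which included all 14. Without Smchd1 null replicate 4 the Smchd1 null count was 17. The 9 genes detected in a Smchd1 null and in no wild-type library (20.9%, against 4.47% of all genes) were Cd4, Cd5, Cd28, Cebpa, Adgre1, Cd14, Fcer1g, Lyz2 and Tek. Of these, 5 were detected in Smchd1 null replicate 4 alone (11.6%, against 2.15% of all genes). No gene was detected in wild-type lines alone (against 1.62% of all genes). The number of libraries differed between the groups, 3 against 4, and no test was made of these counts. By library, the number of detected genes was 10, 13 and 12 in wild-type replicates 1 to 3 and 10, 16, 11 and 17 in Smchd1 null replicates 1 to 4, so that Smchd1 null replicates 2 and 4 stood above the rest and the others shared one range. The same limit was reached by 43.4, 44.8 and 45.5% of all genes in wild-type replicates 1 to 3 and by 44.9, 44.4, 44.3 and 47.3% in Smchd1 null replicates 1 to 4, so that the excess of Smchd1 null replicate 2 was not shared by all genes. A limit of 0.5 CPM, which scales with depth, was reached by 12 genes of the set in each wild-type library. In Smchd1 null replicates 1 to 4 it was reached by 9, 16, 11 and 14 genes. Smchd1 null replicates 1 and 3 thus lay below every wild-type library and replicates 2 and 4 above.

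In the fit over all genes, 1 of the 43 genes fell in Smchd1 null lines and none rose. The fit was limma with voom and sample quality weights on 12303 genes, those that reached 0.5 CPM in no fewer than 3 libraries, 14 of which belong to the set, and a gene was called at a false discovery rate (FDR, Benjamini-Hochberg over all genes tested) under 0.05. The 1 call among 14, for Lck, compares with 11.9% of all genes called in either direction, 5.06% called higher and 6.85% called lower. The median log2 fold change, Smchd1 null minus wild-type, was -0.049 over the 14 genes and -0.0058 over all genes tested, with 7 genes on each side of 0. The 2 groups did not overlap in CPM for 2 of the 14 genes (13.2% of all genes tested), Lck, which was lower (6.85% of all genes in that direction), and Cd68, which was higher in Smchd1 null lines (6.35%). Because the labels do not say whether the replicates came from separate animals, the p-values measure the spread between these libraries only.

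**Figure D2:**
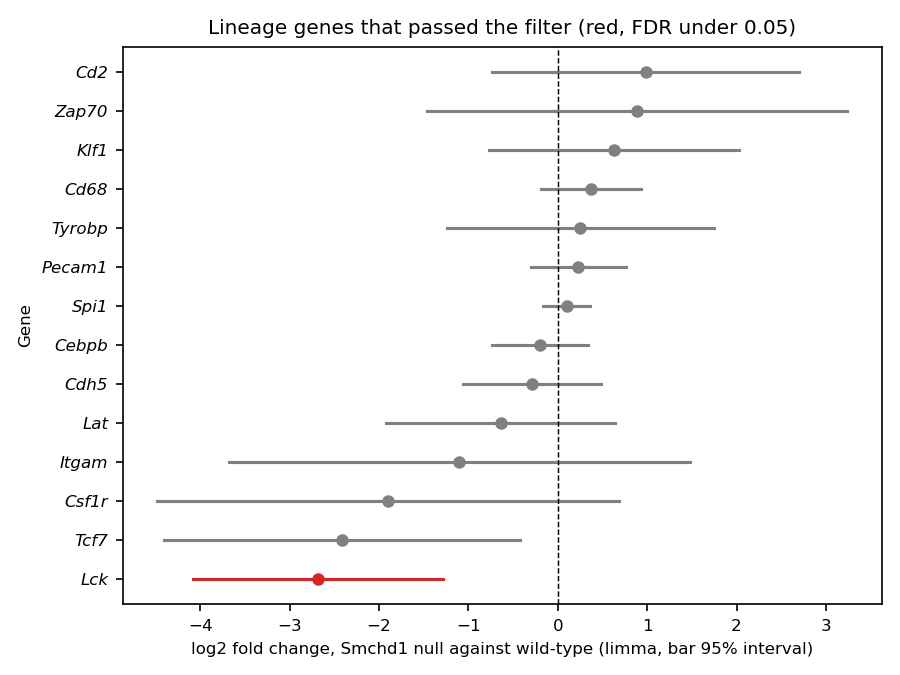
The log2 fold change of Smchd1 null against wild-type lines on the horizontal axis is shown for the 14 lineage genes that passed the filter, with its 95% interval from limma; red marks an FDR under 0.05. Lck at -2.69 is the 1 red point, and the intervals of Spi1, Pecam1, Cebpb and Cd68 are narrow and include 0.

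The genes of the T cell receptor complex and its co-receptors were practically absent. Cd3d, an invariant chain of the receptor, had 1 count in each of wild-type replicates 1 and 3 and Smchd1 null replicate 4, and Cd3g had 1 count in Smchd1 null replicate 2. Cd4, the co-receptor of helper T cells, had 3 counts in Smchd1 null replicate 4 and 0 elsewhere, and Cd8b1 had 1 count in wild-type replicate 3. The summed level of the 6 genes of this class did not pass 0.532 CPM in any library.

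Lck, the SRC family kinase that phosphorylates the CD3 chains, stood at 60.9, 17.6 and 17.6 CPM in wild-type replicates 1 to 3 and at 8.0, 0.964, 2.78 and 11.4 CPM in Smchd1 null replicates 1 to 4. Every Smchd1 null line lay below every wild-type line, with wild-type replicate 1 far above the other two and a wide spread within the Smchd1 null lines. The means were 32.0 ± 25 CPM (SD, n = 3) and 5.79 ± 4.8 CPM (SD, n = 4). The log2 fold change was -2.69 with a standard error of 0.609 and an interval from -4.08 to -1.29 (limma, FDR = 0.0312). The direction was the same in each alternative run, but the call was not. With voom alone, without weights, the FDR of Lck was 0.316 (0.0975% of all genes called), with edgeR's quasi-likelihood test 0.324 (0.0975%) and with DESeq2 0.0659 (3.1%). Without wild-type replicate 2 the limma FDR was 0.662 and without wild-type replicate 3 it was 0.581, with 0.00813% of all genes called in each case. Leaving out Smchd1 null replicate 1, 2 or 3 gave an FDR of 0.0520, 0.0884 and 0.0676 (3.6, 2.28 and 7.5% of all genes called). The call held within batch 2, without wild-type replicate 1 (log2 fold change -2.64, limma FDR = 0.0300, 13.7% of all genes called), and without Smchd1 null replicate 4 (-2.91, limma FDR = 0.0337, 11.2%). With either of wild-type replicates 2 and 3 left out, 1 of 12303 genes was called. The sample weights were 3.78 and 3.06 for wild-type replicates 2 and 3 and 0.246 and 0.249 for wild-type replicate 1 and Smchd1 null replicate 4, so that the wild-type mean of the fit came mostly from the pair of libraries that resembled each other. When the counts of that pair were summed to 1 library, the FDR of Lck was 0.582 (0.00813% of all genes called) at a log2 fold change of -3.26.

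The other genes of proximal T cell receptor signalling were near the limit of detection. Zap70, the kinase that binds phosphorylated CD3 chains, had 6, 0 and 0 counts in wild-type replicates 1 to 3 and 0, 0, 5 and 11 in Smchd1 null replicates 1 to 4 (log2 fold change 0.89, limma FDR = 0.590). Lat, the adaptor that ZAP-70 phosphorylates, had 0, 8 and 5 counts in wild-type replicates and 3, 4, 4 and 6 in Smchd1 null replicates (-0.64, limma FDR = 0.470). Both genes overlapped fully between the groups and neither passed the test.

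Among the T cell surface receptors, Cd2 was present in nearly all lines and Cd5 and Cd28 in a single one. Cd2, an adhesion receptor, measured 11.6, 6.23 and 7.04 CPM in wild-type replicates 1 to 3 and 16.9, 13.2, 32.3 and 0.399 CPM in Smchd1 null replicates 1 to 4. Smchd1 null replicates 1 to 3 all exceeded the wild-type lines, and Smchd1 null replicate 4, with 3 counts, lay below all of them. The log2 fold change was 0.98 with a standard error of 0.748 (limma, FDR = 0.402). Without Smchd1 null replicate 4 it was 1.34 and passed the test (limma, FDR = 0.0367, 11.2% of all genes called). Cd2 was called in 1 of 17 alternative runs, this one. With voom alone and wild-type replicate 1 removed as well, its log2 fold change was 1.52 (FDR = 0.138, 4.23% of all genes called). Voom alone on all libraries gave -0.16 (FDR = 0.980).

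Cd5, a scavenger-type receptor of T cells and B-1 cells, had 419 counts (55.7 CPM) in Smchd1 null replicate 4, 1 count in Smchd1 null replicate 2 and 0 in the other 5 libraries. Cd28, the co-stimulatory receptor of T cells, had 143 counts (19.0 CPM) in Smchd1 null replicate 4 and 0 everywhere else. Both are genes of 1 library, and neither passed the filter of at least 0.5 CPM in 3 libraries.

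Of the T cell transcription factors, Gata3 had 1 count in Smchd1 null replicate 1 and Bcl11b none, so that the class amounted to Tcf7, the factor TCF-1. Tcf7 had 20, 6 and 8 counts in wild-type replicates 1 to 3 (5.51, 0.984 and 1.17 CPM) and 0, 1, 1 and 77 counts in Smchd1 null replicates 1 to 4, the last equal to 10.2 CPM. Smchd1 null replicates 1 to 3 lay below the wild-type range and Smchd1 null replicate 4 above it. The log2 fold change was -2.41 with a standard error of 0.869 (limma, FDR = 0.101). It was -2.84 without Smchd1 null replicate 4 (FDR = 0.0536), and -1.83 with voom alone (FDR = 0.679), whereas edgeR's quasi-likelihood test and DESeq2 gave 0.10 and 0.068. In the RefSeq annotation Tcf7 overlaps Skp1, a ubiquitin ligase subunit that measured 151 to 260 CPM in these libraries. Unstranded reads within the overlap cannot be assigned to either gene by strand. Skp1 measured 184, 160, 183 and 186 CPM in Smchd1 null replicates 1 to 4, where Tcf7 had 0, 1, 1 and 77 counts. The part of Skp1 reads in the Tcf7 counts was not tested. Among the NK cell and cytotoxic genes, Prf1, the perforin gene, had 1 count in wild-type replicate 1 and 1 in Smchd1 null replicate 1, and the other 3 genes had none.

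**Figure D3:**
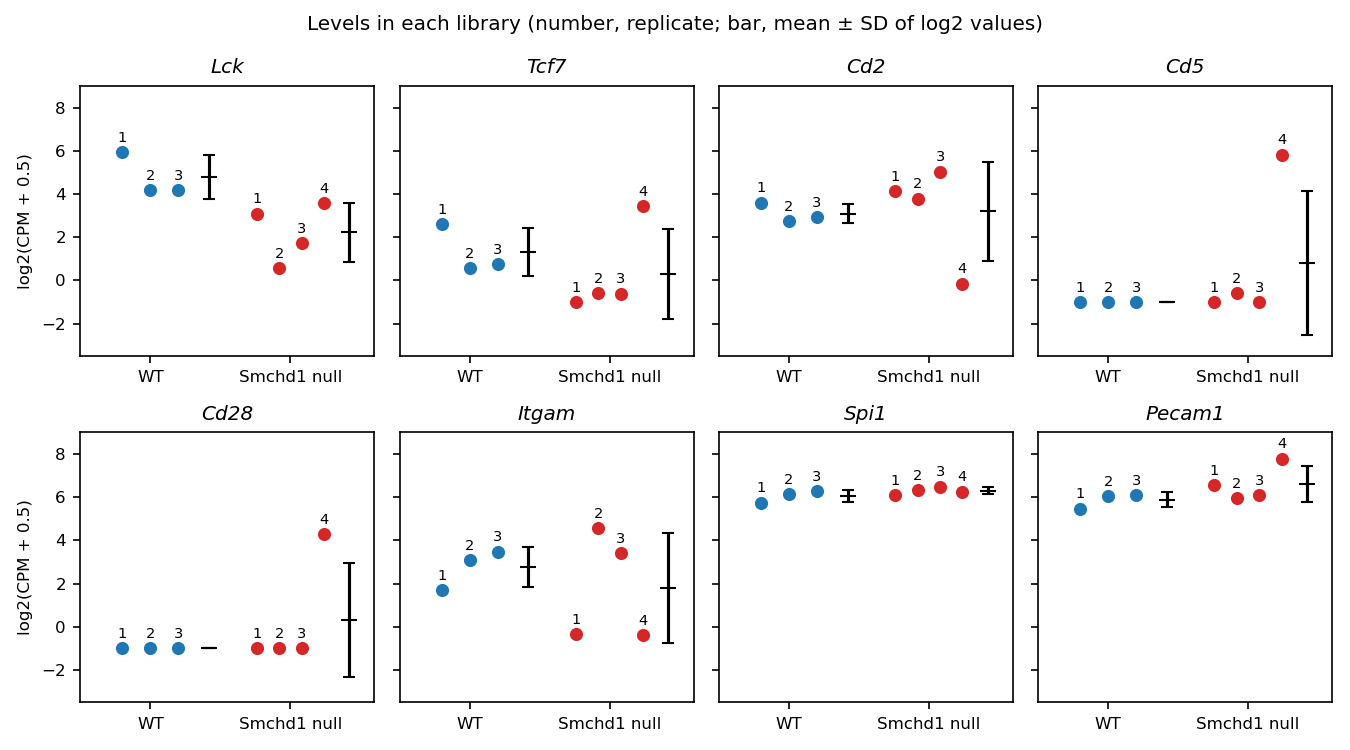
The level of 8 lineage genes, as log2(CPM + 0.5) on the vertical axis, is plotted for each library by genotype; numbers give the replicate and bars the mean ± SD of the log2 values (n = 3 and n = 4). Lck separates the genotypes, Cd5 and Cd28 rise above the floor in Smchd1 null replicate 4 alone, and Spi1 lies in 1 narrow band.

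Myeloid genes were led by Spi1, the gene for the Ets family factor PU.1, which B cell precursors and myeloid cells both use. It measured 53.5, 70.5 and 77.1 CPM in wild-type replicates 1 to 3 and 68.4, 80.1, 89.0 and 76.3 CPM in Smchd1 null replicates 1 to 4. The groups overlapped, and all 7 libraries lay between 53.5 and 89.0 CPM. Its means were 67.0 ± 12.2 CPM (SD, n = 3) and 78.5 ± 8.53 CPM (SD, n = 4), and its log2 fold change was 0.10 with an interval from -0.17 to 0.36 (limma, FDR = 0.591). Per kilobase of gene length Spi1 had the highest mean level of the set, 55.2 CPM per kb, ahead of Pecam1 at 26.9, Cd2 at 10.9 and Lck at 7.41 CPM per kb, and it ranked between the 90.9th and 94.5th percentile of all genes in each library. Cebpb, a C/EBP factor of macrophages and of the acute phase response, had 31, 64 and 67 counts in wild-type replicates and 55, 76, 40 and 45 in Smchd1 null replicates (log2 fold change -0.20, limma FDR = 0.599). Cebpa, the C/EBP factor that starts granulocyte differentiation, had 24 counts (3.19 CPM) in Smchd1 null replicate 4 and 2 or fewer in the other libraries.

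The surface receptors of myeloid cells did not follow the steady level of Spi1. Itgam, the integrin chain CD11b, had 10, 49 and 73 counts in wild-type replicates 1 to 3 (2.76, 8.04 and 10.7 CPM) and 2, 144, 65 and 2 counts in Smchd1 null replicates 1 to 4 (0.296, 23.1, 10.04 and 0.266 CPM). The Smchd1 null lines thus held both the highest and the lowest levels, with a log2 fold change of -1.10 (limma, FDR = 0.541) that edgeR and DESeq2 both gave as 0.22. Tyrobp, the adaptor DAP12, had 2, 5 and 16 counts in wild-type and 6, 15, 18 and 2 in Smchd1 null replicates (0.25, limma FDR = 0.823). Csf1r, the macrophage colony stimulating factor receptor gene, had 0, 5 and 10 counts in wild-type replicates and 12 in Smchd1 null replicate 2, with 0 in the other Smchd1 null lines (-1.90, limma FDR = 0.281).

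Some macrophage genes of the set had low counts in Smchd1 null replicate 2. That library was the 1 in which Adgre1, the F4/80 gene, and Cd14, the endotoxin co-receptor gene, were detected, at 6 and 4 counts. It also had 7 counts of the lysozyme gene Lyz2, which had 3 in Smchd1 null replicate 4 and 0 elsewhere, and 6 counts of Fcer1g, the Fc receptor gamma chain gene. Of the 8 receptor and adaptor genes 6 were detected there, against 1 to 3 in each other library. Macrophage genes outside the set, chosen after their values were seen, did not all follow: the mannose receptor gene Mrc1 had 12 counts in Smchd1 null replicate 2 and 77 in Smchd1 null replicate 1, the Fc receptor gene Fcgr3 had 2 and up to 18 elsewhere, and C1qa and Cx3cr1 had 0 in every library. Lyz2 shares much of its sequence with Lyz1 and its count is uncertain. Fcer1g was highest in Smchd1 null replicate 4, with 40 counts (5.32 CPM), and had no more than 1 count in the 5 libraries besides these. Csf3r had 2 counts in Smchd1 null replicate 2, Itgax no more than 1 count in any library, and the granule peroxidase gene Mpo 1 count in Smchd1 null replicate 4.

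Cd68, a lysosomal glycoprotein gene of macrophages that many other cells transcribe, measured 1.38, 4.26 and 3.52 CPM in wild-type replicates 1 to 3 and 4.59, 5.14, 5.10 and 5.05 CPM in Smchd1 null replicates 1 to 4. All Smchd1 null lines lay above all wild-type lines, the nearest pair being 4.26 and 4.59 CPM. The means were 3.05 ± 1.5 CPM (SD, n = 3) and 4.97 ± 0.255 CPM (SD, n = 4), and the log2 fold change of 0.37, with an interval from -0.19 to 0.93, did not pass the test (limma, FDR = 0.336).

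In the endothelial and erythroid classes the level rested on Pecam1. Pecam1, the adhesion receptor CD31 of endothelium and many blood cells, measured 44.1, 65.9 and 68.3 CPM in wild-type replicates 1 to 3 and 94.2, 61.8, 68.4 and 219 CPM in Smchd1 null replicates 1 to 4. Smchd1 null replicate 4 was 2.33-fold above the next library, Smchd1 null replicate 1, and the rest overlapped. The Smchd1 null mean was 111 ± 73.4 CPM (SD, n = 4), or 74.8 CPM without replicate 4, against 59.5 ± 13.3 CPM (SD, n = 3) in wild-type lines, and the log2 fold change was 0.23 with an interval from -0.30 to 0.76 (limma, FDR = 0.533).

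Endothelial genes other than Pecam1 were low. Cdh5, the VE-cadherin gene, had 13, 12 and 14 counts in wild-type and 12, 8, 17 and 10 counts in Smchd1 null replicates (log2 fold change -0.29, limma FDR = 0.594). Tek, the angiopoietin receptor gene, had 23 counts (3.06 CPM) in Smchd1 null replicate 4, 1 count in Smchd1 null replicate 2 and 0 elsewhere. Klf1, the erythroid transcription factor, had 2, 3 and 1 counts in wild-type and 4, 4, 2 and 2 in Smchd1 null replicates (0.63, limma FDR = 0.517), while Gata1 and Gata2 had none.

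**Figure D4:**
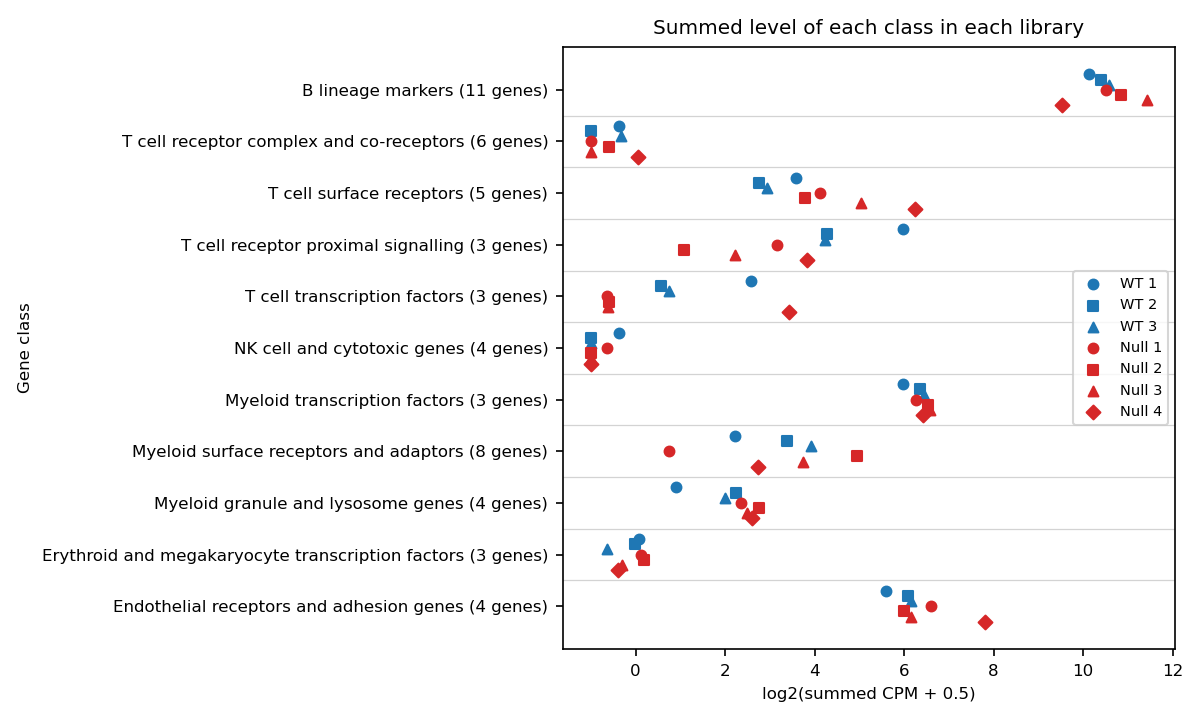
The summed level of each class of lineage genes is drawn on the horizontal axis as log2(summed CPM + 0.5), with 1 point for each library, coloured by genotype and shaped by replicate; the 11 B lineage markers are at the top for reference. Below them, myeloid transcription factors and endothelial genes are the highest classes in 6 libraries, through Spi1 and Pecam1, while in wild-type replicate 1 T cell receptor proximal signalling, at 62.6 CPM, lies beside the myeloid factors at 62.04 CPM, and the NK and T cell receptor complex classes lie near the floor.

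Smchd1 null replicate 4 thus carried some but not all of the T cell, myeloid and endothelial genes of the set. The 43 genes summed to 421 CPM there and to 190 to 221 CPM in the other 6 libraries, and without Spi1 and Pecam1 to 125 CPM against 42.1 to 98.4 CPM. By a rule chosen after these values were seen, at least 5 times the level of every other library, Cd5, Cd28 and Fcer1g stood apart in Smchd1 null replicate 4 (13.0% of the 23 genes detected in some library, against 2.14% of all detected genes). Cd5 and Cd28 are among the 23 only through that library, so these shares are a description and no test. In the other 6 libraries no gene of the set met that rule, against 0.693, 0.007 and 0.014% of all detected genes in wild-type replicates 1 to 3 and 0.273, 0.063 and 0.063% in Smchd1 null replicates 1 to 3. Markers of the same lineages went both ways in Smchd1 null replicate 4. It had 1 count of Cd3d, 3 of Cd4 and 0 of Cd3e, Cd8a, Gata1, Kdr, Ncr1, Gzmb and Elane. It also had 77 counts of Tcf7, 24 of Cebpa, 23 of Tek and 10 of Cdh5. The 11 B lineage markers summed to 740.3 CPM in the same library, against 1118 to 2767 CPM in the others. The part of the low B lineage level in these values was not tested.

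Wider lists of the same lineages, again chosen with results of these data known, gave little more. Among 12 other T cell genes 1 was tested, the kinase gene Fyn at 9.73 to 38.4 CPM, and was not called. Of 10 other NK and cytotoxic genes 1 was tested, of 16 other myeloid genes 6, and of 12 other erythroid, megakaryocyte and mast cell genes 3, and none was called. The most abundant myeloid genes outside the set were Ctss, a lysosomal protease gene at 96.2 to 372 CPM, and Irf8, a factor of B and myeloid cells at 70.9 to 97.1 CPM in 6 libraries and 8.11 CPM in Smchd1 null replicate 4. Of 12 other endothelial genes 3 were tested and Eng, the endoglin gene, was lower in Smchd1 null lines (log2 fold change -2.14, limma FDR = 0.0391) on 3, 6 and 7 counts against 2, 1, 1 and 0. The call of Eng was lost with voom alone, block weights, sample removal, edgeR, the batch term, the replicate block and wild-type replicates 2 and 3 summed, and with any 1 library left out (limma FDR from 0.0584 to 0.8295). None of 8 stromal genes passed the filter, although wild-type replicate 1 had 20 counts of Col1a1, 14 of Col1a2 and 10 of Acta2, against 2 or fewer in each other library. Wild-type replicate 1 was also highest for Lck, and the part of stromal RNA, batch or read type in that level was not tested. Of the 11 B lineage markers, Cd79a was higher (0.96, limma FDR = 0.0445) and Ebf1 lower (-0.67, limma FDR = 0.0494) in Smchd1 null lines, against 5.06% of all genes called higher and 6.85% called lower. Neither was called with voom alone, block weights, edgeR or DESeq2, or without wild-type replicate 2 or 3 or Smchd1 null replicate 1, 2 or 3 (limma FDR from 0.0746 to 0.900 for Cd79a and from 0.0899 to 0.957 for Ebf1 without 1 of these libraries). Within batch 2, without wild-type replicate 1, the limma FDR was 0.0539 for Cd79a and 0.0498 for Ebf1. That fit called 3 of the 11 markers lower and 0 higher, against 8.14 and 5.54% of all genes. The batch term also gave 3 lower and 0 higher (8.12 and 5.47% of all genes). The filter of at least 10 counts in every library, with 8 markers tested, gave 1 lower and 3 higher (9.85 and 6.25%).

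The sequences before the starts of 4 of these genes are shown because they cover the called gene, a gene of a single line, a variable myeloid gene and a silent one. PU.1, the product of the steadily expressed Spi1, binds Ets sites with the core GAGGAA, and RefSeq windows of 250 bases before the start (GRCm38.p6) were searched for GAGGAA and, on the other strand, TTCCTC. The motif was in 16 of 35 windows of 29 genes of the set that had one (45.7%), against 23.3% of 32851 windows of all genes. Some genes have several windows, and 15 of the 29 genes had a match. Another motif searched, CANNTG, was in 65.7% of the windows of the set and 66.2% of all windows. No test was made of these shares, and the matches given below are those of GAGGAA. Lck has a distal and a proximal promoter. The distal window, chr4:129573642-129573891 on the minus strand, held 1 match 174 bases before the start, and the proximal window, chr4:129558373-129558622 on the minus strand, held none. The Cd5 window, chr19:10738975-10739224 on the minus strand, held 1 match 53 bases before the start, the Itgam window, chr7:128062390-128062639 on the plus strand, held 2, at 84 and 15 bases, and the Cd3e window, chr9:45009612-45009861 on the minus strand, held 1 at 100 bases. Matches thus stood before a gene with 419 counts in 1 line, before a gene that ranged from 2 to 144 counts and before a gene at 0 in all 7 libraries. The windows are written 5′ to 3′ on the gene's strand, with matches in capitals.
Lck distal: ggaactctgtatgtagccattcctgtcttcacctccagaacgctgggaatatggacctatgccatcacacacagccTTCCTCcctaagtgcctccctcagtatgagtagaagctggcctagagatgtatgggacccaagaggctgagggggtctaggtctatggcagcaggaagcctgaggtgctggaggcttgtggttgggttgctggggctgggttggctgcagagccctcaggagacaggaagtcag
Lck proximal: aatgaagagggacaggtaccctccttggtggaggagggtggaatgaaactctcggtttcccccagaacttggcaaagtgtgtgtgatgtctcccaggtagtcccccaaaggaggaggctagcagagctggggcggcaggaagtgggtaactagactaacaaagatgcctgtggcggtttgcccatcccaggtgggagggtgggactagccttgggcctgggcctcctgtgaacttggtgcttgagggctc
Cd5: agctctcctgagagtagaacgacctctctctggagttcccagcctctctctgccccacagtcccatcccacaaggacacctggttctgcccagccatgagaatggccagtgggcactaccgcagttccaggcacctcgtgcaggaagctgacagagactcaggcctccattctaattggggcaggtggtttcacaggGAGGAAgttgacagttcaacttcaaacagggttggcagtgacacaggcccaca
Itgam: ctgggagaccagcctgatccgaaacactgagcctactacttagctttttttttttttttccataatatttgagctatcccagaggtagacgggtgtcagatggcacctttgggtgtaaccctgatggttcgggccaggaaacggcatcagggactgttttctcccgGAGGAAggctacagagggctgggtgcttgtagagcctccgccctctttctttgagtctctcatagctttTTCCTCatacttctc
Cd3e: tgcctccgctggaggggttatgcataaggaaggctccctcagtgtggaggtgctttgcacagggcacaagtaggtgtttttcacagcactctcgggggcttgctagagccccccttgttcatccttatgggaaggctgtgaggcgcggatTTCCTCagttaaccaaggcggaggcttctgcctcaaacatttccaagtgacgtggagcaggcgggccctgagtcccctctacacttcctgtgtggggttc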

How the data were processed

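RNA-seq counts were deposited for each library as whole numbers per Entrez gene with a gene length. The authors aligned reads to mm10 with Subread and summarised them with featureCounts, after base calling with CASAVA 1.8.2. Settings for strand and for reads with several matches are not given in the sources used here, and overlapping or near-identical genes (Tcf7 with Skp1, Gata3 with 2 non-coding RNAs, Lyz2 with Lyz1) are uncertain. Gene lengths, in bases, were taken as deposited and used for CPM per kb. Symbols came from the RefSeq gene table, which matched 25275 of 27179 identifiers. The members and lists were chosen with earlier results of these data known, and the plasma cell genes and the detection counts without each library were added after the data were seen.

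The 12303 genes that reached 0.5 CPM in no fewer than 3 libraries were TMM normalised and fitted by limma 3.58.1 (R 4.3.3) with voom and sample quality weights, Smchd1 null minus wild-type, all 7 libraries and no covariate, two-sided moderated tests and an FDR under 0.05. Alternatives were voom alone, block weights, removal of wild-type replicate 1 and Smchd1 null replicate 4, relative log expression, other filters, edgeR 4.0.16, DESeq2 1.42.0, a batch term, a replicate block, each library left out and wild-type replicates 2 and 3 summed. Scripts were tested on simulated data. Every member is named, with values in all libraries for those that passed the filter or reached 3 counts; of other lists, called genes and up to 3 with the highest mean are named. Depth was 3626853 to 7519549 counts; detection limits cover counting error only, and the intervals of limma cover the spread between libraries. A B lineage marker of the planned list is not reported here.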

Additional observations from a re-analysis of the deposited data

Results flagged for a closer look

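Among the 4 Smchd1 null libraries, 24 values were screened for a library far from the others of the group, the levels of 14 genes and the summed levels of 10 classes. The screen set the gap from the extreme library to its neighbour against the range of the group, on log2 values. Its cut-off would mark about 1.2 of 24 values if these were independent and normally distributed. They are not, because class sums repeat their genes and a few counts beside 0 make a full gap. The screen marked 5, and that number cannot be set against chance. Tcf7 had 10.2 CPM in Smchd1 null replicate 4, with 0 to 0.161 CPM in its group's other libraries, and the summed T cell transcription factors, which Tcf7 dominates, at 10.2 CPM against 0.148 to 0.161 CPM. Csf1r stood at 1.93 CPM in Smchd1 null replicate 2 and at 0 in the other 3. Cd68 was lowest in Smchd1 null replicate 1 at 4.59 CPM, with 5.05 to 5.14 CPM in the others, a gap that is small in absolute terms. The summed NK cell and cytotoxic genes stood at 0.148 CPM in Smchd1 null replicate 1, a single count of Prf1, and at 0 in the others. The cause of these gaps was not tested.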

How the results depend on the processing

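The 43 genes gave 1 call, and 0 under voom alone, block weights, sample removal, the filter of at least 10 counts in every library (3 genes tested, Lck not among them), edgeR, DESeq2 and the summed wild-type replicates 2 and 3. At an unadjusted p under 0.05 those settings gave 1, 2, 3, 0, 1, 1 and 2 genes, and of all genes they called 0.0975, 4.01, 4.23, 16.1, 0.0975, 3.1 and 0.00813%. Leaving out each library gave 0 to 2 calls, the 2 being Lck and Cd2 without Smchd1 null replicate 4, where 11.2% of all genes were called. With each library left out in turn, the detection counts at 3 counts ranged from 13 to 14 (wild-type) and 17 to 23 (Smchd1 null). At least 1 count in some library was reached by 21 genes in wild-type and 31 in Smchd1 null lines. At least 10 counts were reached by 11 and 17 genes, and at least 0.5 CPM by 14 and 22. The call stayed at 1 under relative log expression, no filter (32 genes of the set tested), the batch term and an FDR under 0.1. Of all genes those settings called 11.7, 8.65, 13.6 and 22.7%. The deviations of same-numbered libraries from their group means correlated at -0.15, 0.22 and -0.21, against -0.24 to 0.21 for differently numbered ones. Deviations from the means of so few libraries cannot show whether the replicate numbers pair the libraries. With a replicate block 1 gene of the set was called, Lck at a log2 fold change of -3.41, while all genes called fell from 1466 to 222. Over all alternatives the log2 fold change of Lck lay between -3.41 and -1.88.

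Genes that passed no test in that setting changed direction. With voom alone Cd2 was -0.16, Lat 0.20 and Tyrobp -0.051. With edgeR and DESeq2 Itgam was 0.22 in both, and Tcf7 0.10 and 0.068. With the replicate block Cebpb was 0.0095, Csf1r 0.30 and Itgam 1.06. With each library left out in turn Lat ranged from -0.69 to 0.84 (positive without wild-type replicate 2, and 0.44 without wild-type replicate 3), Zap70 from -0.97 (without wild-type replicate 3; -0.80 without wild-type replicate 2) to 2.30, Klf1 from -0.078 (without wild-type replicate 3) to 0.81 and Cdh5 from -0.60 to 0.037 (without Smchd1 null replicate 2). With wild-type replicates 2 and 3 summed Lat was 0.36. The cause of these changes was not tested. Depth limits genes under 3 counts, 0.399 to 0.827 CPM, where neither presence nor a difference was detectable.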

Other observations

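Genes outside the 43 also stood apart in Smchd1 null replicate 4. Prdm1, the gene of the plasma cell factor BLIMP-1, had 111 counts (14.8 CPM) there and at most 2.48 CPM elsewhere. Ctla4, an inhibitory receptor gene of activated and regulatory T cells, had 86 counts (11.4 CPM) and 0 elsewhere, and Flt1, a vascular endothelial growth factor receptor gene, had 89 counts (11.8 CPM) and 1 count in Smchd1 null replicate 2. Ncf1, a subunit gene of the phagocyte oxidase, had 130 counts (17.3 CPM), against at most 4.5 CPM in each other library. Cybb, of the same oxidase, was highest in Smchd1 null replicate 2 at 27.8 CPM and next in Smchd1 null replicate 4 at 22.3 CPM, with 2.81 to 8.34 CPM in the other 5 libraries. Of 4 plasma cell genes (Sdc1, Prdm1, Irf4 and Xbp1) 3 passed the filter and none was called by limma. The summed levels of the lists that hold these genes did not stand apart in Smchd1 null replicate 4. The 12 other T cell genes summed to 33.2 CPM there, against 10.3 to 40.5 CPM in the other libraries. For the 12 other endothelial genes the sum was 57.3 CPM, against 43.3 to 73.7 CPM. For the 16 other myeloid genes it was 201 CPM, against 198 to 481 CPM, and for the 4 plasma cell genes 345 CPM, against 293 to 531 CPM. The genes of this paragraph were chosen after their values were seen, and they have no replicate within the group.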
